A study of Mus musculus with 7 samples.

Results

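The genes described here encode the 2-oxoacid dehydrogenase complexes, the mitochondrial enzymes that oxidise pyruvate, 2-oxoglutarate and the 2-oxoacids of branched-chain amino acids. The members are a named list of 10 genes, Dld, Dlst, Dlat, Ogdh, Pdha1, Pdhb, Pdhx, Bckdha, Bckdhb and Dbt. Every probe set whose only gene symbol in the platform annotation is a member was taken. This gave 14 probe sets for 9 of the 10 genes, and all 9 genes were among the 8077 genes tested. No probe set carried the symbol Pdhx alone, so Pdhx was not analysed here. The genes were chosen by their place in these complexes after Dld and Dlst had been seen to differ between the genotypes on these arrays. The differences of the members between the genotypes are therefore a description, with the error and the result of the fit across all genes, and support nothing by themselves.

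RNA was measured on 7 arrays, 1 per sample, from mouse LSK cells, bone marrow cells without mature lineage markers and with Sca-1 and c-Kit, a gate rich in blood stem cells and early progenitors. The 4 Lkb1 KO samples (numbers 4 to 7) came from Lkb1 L/L rosa26CreERT2 mice and the 3 Lkb1 WT samples (numbers 5 to 7) from Lkb1 L/L mice without that Cre. All were adult C57BL/Ka-CD45.2:Thy-1.1 mice, all carried the floxed Lkb1 alleles, and all received tamoxifen for 5 days, with the marrow taken 1 day after the last dose. Cre was thus present in the KO mice alone, and effects of Cre and of the loss of Lkb1 cannot be told apart. The Cre stands at Rosa26, a locus active in most cell types, so deletion was not limited to blood cells. Each sample held 15000 to 20000 sorted cells, whose total RNA, roughly 10 ng, was amplified before labelling. Whether each sample came from its own animal is not stated in the labels. The p-values thus reflect only how these samples vary, and that variation may be technical.

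Each of these complexes joins a thiamine-dependent decarboxylase, an acyltransferase core that carries the substrate on a lipoyl arm, and a flavoprotein that reoxidises the arm. Pyruvate dehydrogenase makes acetyl-CoA from pyruvate, 2-oxoglutarate dehydrogenase is a step of the TCA cycle, and the branched-chain complex commits valine, leucine and isoleucine to breakdown. The flavoprotein, encoded by Dld, is shared by all of them and by the glycine cleavage system. In blood stem cells the conversion of pyruvate to acetyl-CoA is known to be held low by kinases that inactivate pyruvate dehydrogenase.

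The windows around the annotated start sites of the 3 members that passed the test across all genes are shown because these genes were higher in the same arrays. They come from RefSeq on GRCm38.p6, run from 250 bases before the start to 50 after it, and are printed 5′ to 3′ on the gene's strand. The window of Dld lies at chr12:31351422-31351721 on the minus strand, that of Dlst at chr12:85110583-85110882 on the plus strand and that of Bckdhb at chr9:83924887-83925186 on the plus strand. Capitals mark matches on either strand to 7 motifs, chosen after these windows had been seen.
Dld: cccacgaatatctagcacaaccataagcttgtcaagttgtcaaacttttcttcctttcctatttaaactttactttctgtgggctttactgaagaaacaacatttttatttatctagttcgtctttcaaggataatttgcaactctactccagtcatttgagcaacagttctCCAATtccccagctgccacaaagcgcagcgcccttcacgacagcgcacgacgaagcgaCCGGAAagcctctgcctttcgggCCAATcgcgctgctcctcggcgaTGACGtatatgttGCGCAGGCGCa
Dlst: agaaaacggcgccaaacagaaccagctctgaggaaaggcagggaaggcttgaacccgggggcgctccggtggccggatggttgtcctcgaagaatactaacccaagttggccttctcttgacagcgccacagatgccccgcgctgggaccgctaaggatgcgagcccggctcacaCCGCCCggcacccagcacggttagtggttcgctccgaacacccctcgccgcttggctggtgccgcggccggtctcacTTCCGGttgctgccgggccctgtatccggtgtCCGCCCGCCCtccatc
Bckdhb: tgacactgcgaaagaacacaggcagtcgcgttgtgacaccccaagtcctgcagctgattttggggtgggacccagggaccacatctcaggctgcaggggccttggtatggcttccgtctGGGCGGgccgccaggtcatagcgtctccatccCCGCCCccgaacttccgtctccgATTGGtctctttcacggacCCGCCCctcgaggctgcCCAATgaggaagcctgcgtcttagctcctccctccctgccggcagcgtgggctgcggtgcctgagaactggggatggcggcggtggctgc
The motifs were the ETS core CCGGAA, the NRF1 site, the CCAAT box CCAAT, the GC box GGGCGG, the E-box CACGTG, the core of the cyclic AMP element TGACG and the ERR core AAGGTCA. GC boxes can overlap each other, as the last 2 in the Dlst window do.

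The ETS core occurred 20 bases before the start of Dld and 2 bases after that of Dlst. It was present in 14.9% of all 32851 windows. The NRF1 site, bound by a factor known for genes of mitochondrial respiration, occurred in the Dld window, where its first base lies 39 bases after the start, and in 4.6% of all windows. The Dld window also held 2 CCAAT boxes, a motif found in 37.4% of windows, and a TGACG match, found in 20.8%. The Dlst window held 3 GC boxes, found in 35.7% of windows, and no CCAAT box. The Bckdhb window shown held 3 GC boxes and 2 CCAAT boxes and no ETS core, whereas a second annotated start of Bckdhb had an ETS core in its window. E-boxes and ERR cores were in none of the 3 windows shown, and were present in 7.15% and 4.72% of all windows. The GC content was 47.0% for Dld, 65.7% for Dlst and 65.0% for Bckdhb, against a median of 52.7% over all windows. Among the 9 members with a window (none was listed for Dbt), 5 held a CCAAT box and 6 a GC box in at least 1 window. Counted in the same way, 41.1% and 38.2% of all 27025 genes with a window did. These matches describe letters in the reference only.

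Deposited signals were brighter on KO arrays. With 2% trimmed at each end, mean signals ranged over 360.4 to 425.9 for KO arrays and 228.6 to 340.5 for WT arrays (two-sided exact permutation test, p = 0.0286, the smallest the design allows). Lkb1 WT 7 was the dimmest. The Actb control probe sets had a 3′ to 5′ ratio, which grows as RNA shortens, between 11.4 and 12.3 on KO arrays and between 12.6 and 13.1 on WT arrays (two-sided exact permutation test, p = 0.0571). The same ratio of the Gapdh controls overlapped, at 7.49 to 7.95 in KO and 6.68 to 9.46 in WT (two-sided exact permutation test, p = 0.6). A fit that includes the Actb ratio is given with the other settings. Stk11, the gene of Lkb1, had deposited signals of 162.5, 123.4, 91.2 and 74.1 in KO and 187.3, 115.2 and 99.3 in WT in its brighter probe set, which overlap (difference -0.56, limma adjusted p = 0.117). Its dimmer probe set, which did not stand for the gene in the fit, read 38.3, 57.9, 28.5 and 5.9 in KO and 3.4, 5.1 and 19.4 in WT. These also overlapped, with a difference of 0.71. Its readings on KO 7, WT 5 and WT 6 lay below the background level of 13.64, which is defined further below. Neither probe set can serve as a check of the labels, since their place relative to the deleted part is unknown. Signals below are quantile-normalized intensities in the order KO 4, 5, 6 and 7 and then WT 5, 6 and 7. Differences are KO minus WT on the log2(signal + 16) scale with a 95% interval from limma. An adjusted p is Benjamini-Hochberg over all genes tested, with a threshold of 0.05.

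The level of several marker genes moved with genotype. The summed normalized signal of 9 granulocyte genes lay between 25790 and 30810 in KO and between 40532 and 51620 in WT, and 7 of the 9 fell. The other 2, Elane at 0.41 and Mpo at 0.15, did not pass, with every KO array above every WT array. For 7 stem and progenitor genes it lay between 10578 and 11558 in KO and between 13474 and 14748 in WT, and Kit and Hlf fell. The sums of 6 erythroid genes (2638 to 3646 in KO, 3916 to 5449 in WT) and 4 megakaryocyte genes (2705 to 4267 in KO, 5049 to 5418 in WT) were lower in KO, where Ermap and Plek fell and Hba-a2 rose, and that of 6 monocyte and macrophage genes overlapped (5637 to 8860 in KO, 4996 to 6540 in WT), with F13a1 up and Lyz2 down. The 2 B cell genes tested overlapped, at 550 to 713 in KO and 555 to 712 in WT. The T cell genes Cd3e and Cd3g and the B cell genes Cd79a and Pax5 were above the background level on no array, whereas Cd4 was above it on 1 array, Cd8a on 5, and the B cell genes Ms4a1, Cd79b and Vpreb1 on all 7. Nkg7 was the only T and NK cell gene tested and rose (2697 to 3233 in KO, 1939 to 2121 in WT). The LSK genes Kit, Cd34 and Flt3 were above it on all 7, and Ly6a, which encodes Sca-1, had no probe set of its own. The part of these cell type differences in the values of the complex genes was not tested, and in these bulk samples more cells of a type and more RNA per cell cannot be told apart.

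Of the 9 members tested, Dld, Dlst and Bckdhb were higher in KO past the threshold and none was lower. In the same fit 2.46% of all tested genes were higher and 2.95% lower. Nothing is read from the members' count, because this contrast helped to choose them. KO and WT arrays did not overlap for 3 members with KO higher and for 1, Bckdha, with KO lower, where the shares over all tested genes were 11.4% and 12.7%, or 24.1% in either direction. The other 5 overlapped. The median difference was 0.16 over the 9 members, 0.08 over the 7 without Dld and Dlst, and -0.02 over all tested genes.

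Dld encodes dihydrolipoamide dehydrogenase, the shared flavoprotein. Its signals were 439, 425, 446 and 442 in KO and 277, 231 and 284 in WT. Every KO array was above every WT array, and the KO arrays lay closer together than the WT arrays, at 8.83 ± 0.03 (SD, n = 4) against 8.12 ± 0.15 (SD, n = 3) on the log2 scale. The difference was 0.70 (0.48 to 0.93), a 1.63-fold higher signal (limma adjusted p = 0.0169), and 98.98% of tested genes had a difference no larger. The gap between the lowest KO and the highest WT array was 0.56. In the deposited signals the separation was present as well, with 550.2, 487.9, 464.4 and 457 in KO and 276, 203.5 and 186.8 in WT. Without each sample in turn Dld passed in 6 of 7 fits and missed the threshold without Lkb1 KO 7 (limma adjusted p = 0.0531), where the difference was 0.70.

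**Figure D1:**
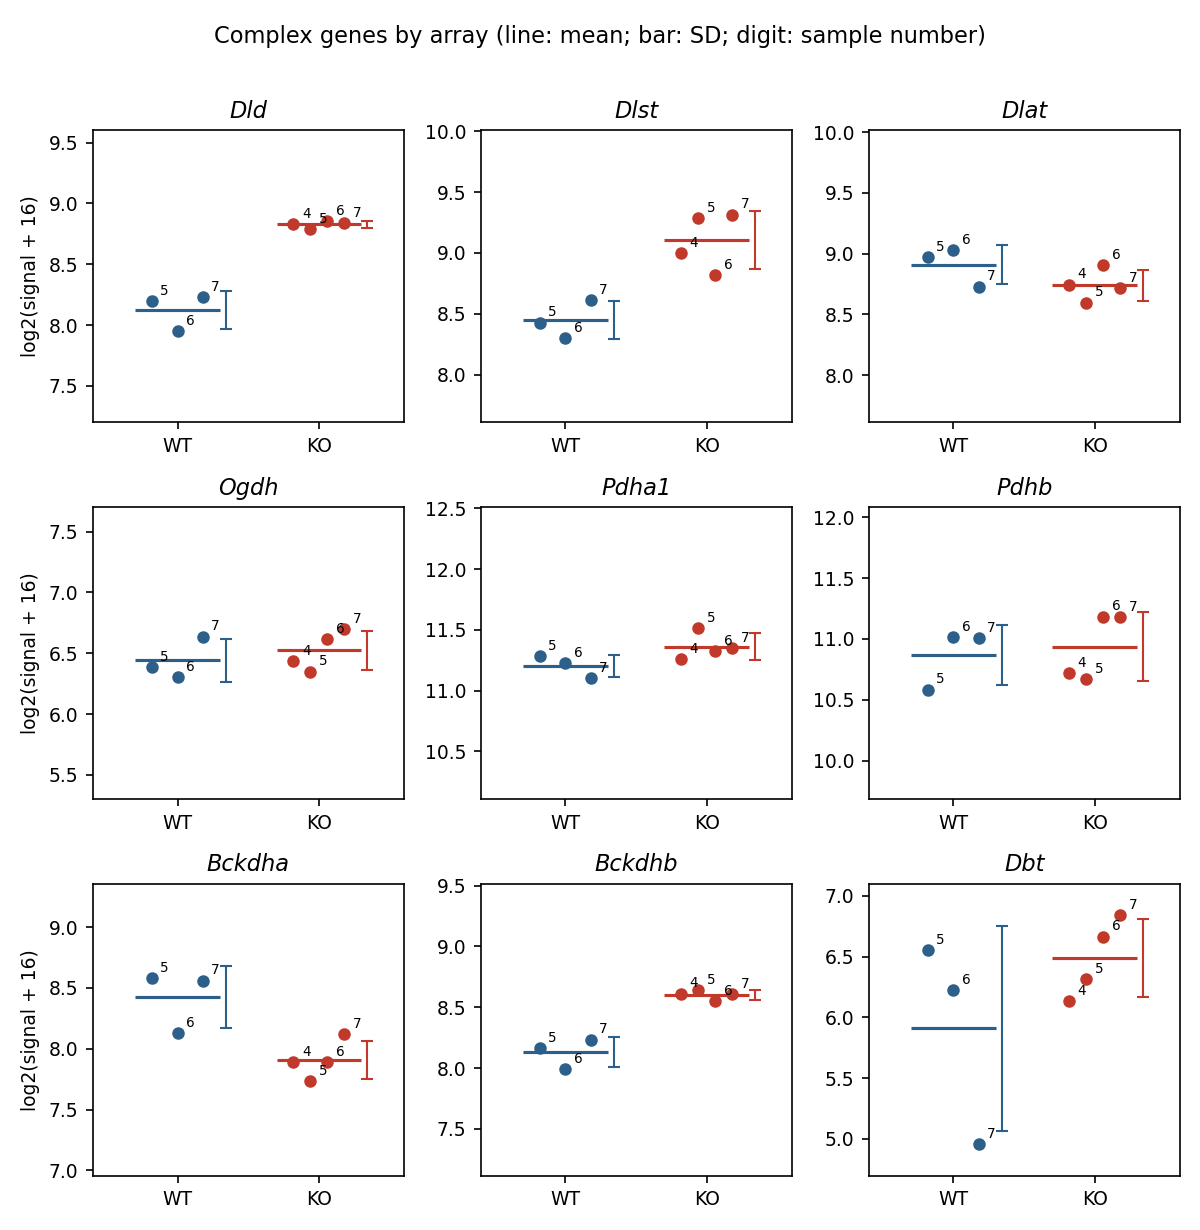
Normalized level of the brightest probe set of each measured complex gene, as log2(signal + 16), on each of the 3 WT (blue) and 4 KO (red) arrays, with the sample number beside each point. Lines are group means and bars are SD, and each panel spans the same number of log2 units around its own middle. Dld, Dlst and Bckdhb separate upward in KO, Bckdha separates downward, and the other 5 overlap.

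The acyltransferase genes are Dlst, of the 2-oxoglutarate complex, Dlat, of the pyruvate complex, and Dbt, of the branched-chain complex. Dlst had signals of 497, 609, 436 and 621 in KO and 328, 299 and 375 in WT. The groups did not overlap, and KO 6 came closest to WT. The difference was 0.66 (0.33 to 0.99), a 1.58-fold higher signal (limma adjusted p = 0.0406). Dlst passed in 1 of the 7 fits without a sample, the one without KO 6, and the adjusted p ranged from 0.0439 to 0.115 over these fits.

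A second, dimmer probe set of Dlst read 64.6, 54.3, 44.5 and 58.8 in KO and 47.7, 26.8 and 74.8 in WT. These values overlapped, with WT 7 the highest of the 7, and the difference was 0.18 (-0.35 to 0.71). The higher level of Dlst in KO therefore rests on its brighter probe set, and the mean of both gave 0.42 (limma adjusted p = 0.178).

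Dlat had 3 probe sets, which differed in sign. The brightest read 413, 371, 463 and 404 in KO and 486, 507 and 408 in WT, a difference of -0.17 (-0.43 to 0.09) with overlapping groups. Another, of the kind whose probes can match more than a single transcript by its name ending in x_at, read 466, 457, 493 and 513 in KO and 368, 364.5 and 379 in WT. Its groups did not overlap, and the difference was 0.36 (0.16 to 0.57). It missed the threshold in the fit over probe sets (limma adjusted p = 0.0658). The last read 294, 310, 350 and 280 in KO and 254, 283 and 224 in WT, where KO 7 lay just below WT 6. No direction is given for Dlat.

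Dbt was dim and scattered. Its signals were 54.1, 63.7, 85.4 and 98.7 in KO and 77.7, 58.6 and 15.0 in WT, so that the groups overlapped and WT 7 stood far below the other arrays. The difference was 0.58 (-0.24 to 1.40, limma adjusted p = 0.35). The deposited signal of Dbt on WT 7, 11.2, lay below the background level of 13.64, the 95th percentile of control probe sets for Bacillus transcripts, taken as absent from the samples because they were dim. Without WT 7 the difference was 0.10 (limma adjusted p = 0.806).

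The decarboxylase genes Ogdh, Pdha1 and Pdhb showed no separation in their brightest probe sets. Ogdh, of the 2-oxoglutarate complex, read 70.5, 65.5, 81.9 and 87.9 in KO and 67.5, 63.0 and 83.5 in WT, a difference of 0.08 (-0.20 to 0.37). The groups overlapped, with KO 7 and WT 7 the highest of each. The difference of Dlst, its partner in the complex, was not tested against that of Ogdh.

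Pdha1, the X-linked alpha subunit of pyruvate dehydrogenase and the target of its inactivating kinases, read 2434, 2910, 2551 and 2592 in KO and 2473, 2382 and 2184 in WT. KO 4 lay among the WT arrays, and the difference was 0.16 (-0.07 to 0.38). A dimmer probe set of Pdha1 read 267, 229, 338 and 239 in KO and 196, 126 and 169 in WT. There the groups did not overlap and the difference was 0.67 (0.26 to 1.07), short of the threshold in the fit over probe sets (limma adjusted p = 0.0724). The probe sets of Pdha1 thus pointed the same way and differed in size.

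Pdhb, the beta subunit of the same enzyme, read 1672, 1609, 2311 and 2301 in KO and 1518, 2052 and 2042 in WT. Each group held both lower and higher arrays, and the difference was 0.07 (-0.34 to 0.47). Its dimmer probe set had a difference of 0.23 (-0.54 to 1.00), and its deposited signal on WT 7, 5.9, was below the background level. In the fits without a sample the difference of Pdhb ran from -0.07 to 0.16.

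Bckdhb, the beta subunit of the branched-chain decarboxylase, read 375, 383, 358 and 375 in KO and 271, 238 and 285 in WT. The groups did not overlap, and the KO arrays again lay close together, with an SD of 0.04 (n = 4) against 0.13 (n = 3) in WT. The difference was 0.47 (0.26 to 0.68), a 1.39-fold higher signal (limma adjusted p = 0.0300). Bckdhb passed in none of the 7 fits without a sample, where the adjusted p ran from 0.0607 to 0.0815 and the difference from 0.40 to 0.53.

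Bckdha, the alpha subunit of the same enzyme and the target of the branched-chain kinase, read 221.5, 197, 221 and 262 in KO and 367, 264 and 362 in WT. All KO arrays were below all WT arrays, but KO 7 and WT 6 were nearly equal. The difference was -0.52 (-0.84 to -0.19, limma adjusted p = 0.0709), which did not pass. In the deposited scaling, in which the median of all tested genes was 0.34 higher in KO, Bckdha stood at -0.13. It was the only member below 0 in that scaling. Its deposited signals overlapped, at 275.5, 220.2, 229.2 and 271.2 in KO and 366.4, 231.1 and 238.2 in WT.

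Over all 14 probe sets of the members, 12 had a difference above 0 and 2 below. Of all tested genes, each by its brightest probe set, 47.6% had a difference above 0. Groups did not overlap for 5 of the 14 with KO higher and 1 with KO lower. Of the 12449 probe sets tested, 11.6% and 10.8% did so, or 22.4% in either direction. In that fit Dld and Bckdhb passed, and Dlst did not (limma adjusted p = 0.0506), while 3.84% of probe sets passed in either direction. Signals were above the background level on all 7 arrays for 12 of the 14. The 2 exceptions, Dbt and the dimmer probe set of Pdhb, were each below it on WT 7.

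**Figure D2:**
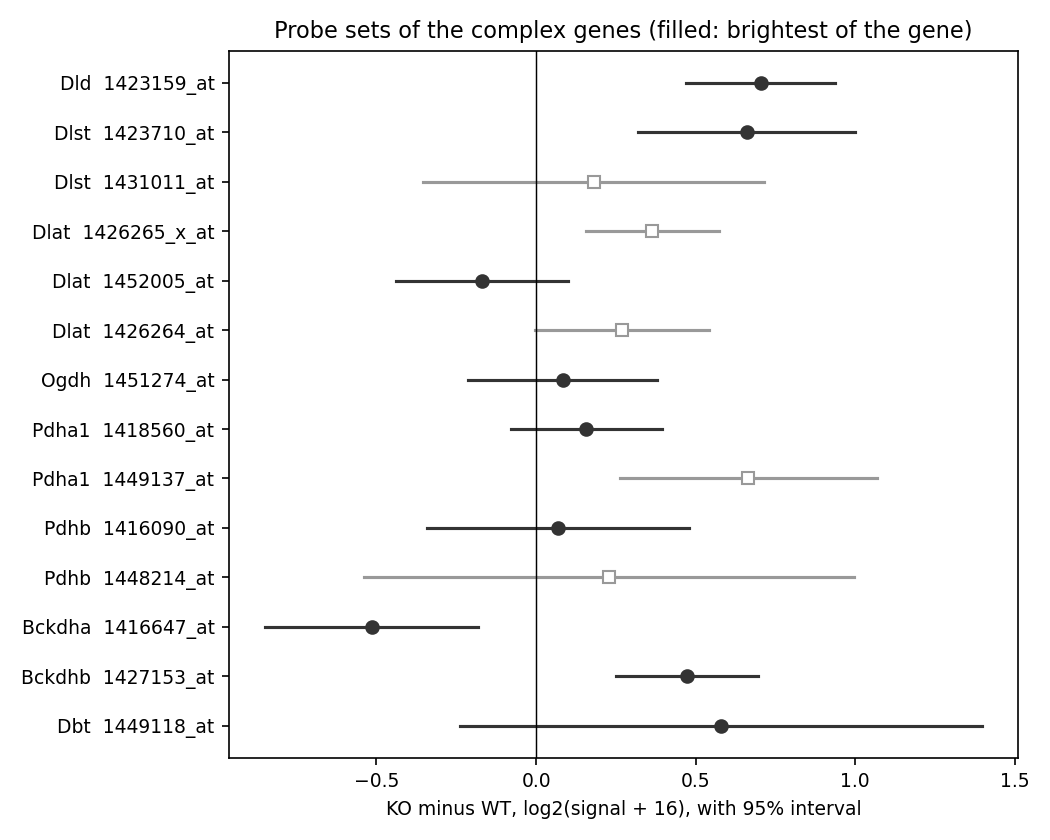
Difference between KO and WT for each of the 14 probe sets of the complex genes, on the log2(signal + 16) scale, with 95% intervals from the fit over probe sets. Filled circles are the brightest probe set of a gene and open squares its others, and the probe sets of Dlat lie on both sides of 0.

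Genes that modify or feed the complexes were followed through 7 lists. These are measured on the same arrays and contrast as the members, and were drawn up with earlier results known. Of their 88 genes, 69 had a probe set and 62 were tested. Of these 3 rose and 1 fell, and 58 did not pass. Over all tested genes 5.41% passed in either direction. The median difference was 0.17, and -0.02 over all tested genes. All 4 belonged to the list of pyruvate supply and use, in which 7 genes were tested and the median was 0.43. Under some other settings of the processing, genes of other lists passed as well. As reported, KO and WT arrays did not overlap for 17 of the 62 with KO higher and for 4 with KO lower. The shares over all tested genes were 11.4% and 12.7%.

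Mpc1, a subunit of the carrier that brings pyruvate into mitochondria, rose by 0.61 ± 0.09 (SE, limma adjusted p = 0.0199). Ldha, which interconverts pyruvate and lactate, rose by 0.65 ± 0.11 (SE, limma adjusted p = 0.0225), and Slc16a1, a lactate and pyruvate transporter of the cell surface, by 0.58 ± 0.13 (SE, limma adjusted p = 0.0442). Ldhb, the other main lactate dehydrogenase subunit, fell by 0.55 ± 0.10 (SE, limma adjusted p = 0.0248), and its 3 other probe sets stood at -0.44, -0.27 and -0.10. Without each sample in turn Mpc1 passed in 4 of 7 fits, Ldha in 3, Ldhb in 1 and Slc16a1 in none. Of 13 other settings Ldhb passed in 6. It did not pass in the mean of its probe sets, at -0.34, nor in the deposited scaling, at -0.14, and it stayed below 0 in both. Pkm, the pyruvate kinase gene, was at 0.43 with KO above WT on every array, and did not pass.

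In the list of kinases and phosphatases 4 genes were tested, all of them kinases, and none passed, with a median of 0.03. No phosphatase gene of the list had a probe set of its own. Bckdk, the kinase of the branched-chain complex, was at 0.23 (limma adjusted p = 0.256) and Pdk3 at 0.12 (limma adjusted p = 0.532). Pdk4 was at -0.28, and Pdk2 was too dim to be tested. Of 11 genes for making and attaching lipoic acid none passed (median 0.07). Those of lowest p were Mecr, of mitochondrial fatty acid synthesis, at 0.44 (limma adjusted p = 0.0522) and Lipt2, the lipoyl transferase of that route, at 0.25 (limma adjusted p = 0.162), both with KO above WT on every array. The lipoic acid synthase gene Lias was at 0.27, also with KO above WT on every array. The lipoyltransferase gene Lipt1 was at -0.01, with overlapping groups.

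Of 9 genes that supply thiamine, flavin and coenzyme A none passed (median 0.21). Coasy, the last enzyme of coenzyme A synthesis, was at 0.49 (limma adjusted p = 0.059) and the thiamine transporter gene Slc19a2 at 0.42 (limma adjusted p = 0.0719). The related subunits tested were Gcsh, the lipoyl protein of the glycine cleavage system, at 0.32 (limma adjusted p = 0.104), and Mrps36, at 0.17 (limma adjusted p = 0.541). In the breakdown of branched-chain amino acids none of 15 passed (median 0.17). Aldh6a1, of valine breakdown, was at -0.39 (limma adjusted p = 0.0576) and Ivd, of leucine breakdown, at 0.37 (limma adjusted p = 0.0605). Of 14 other TCA cycle enzymes none passed (median 0.16), with Idh3a at 0.45 (limma adjusted p = 0.0562) and Sdhc at 0.35 (limma adjusted p = 0.0615). All but 2 of these 14 differences were above 0, as were 47.6% of the differences of all tested genes. Of the genes named in this paragraph, Coasy, Slc19a2, Gcsh, Ivd, Idh3a and Sdhc had KO above WT on every array. Aldh6a1 had KO below WT on every array, and Mrps36 overlapped.

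**Figure D3:**
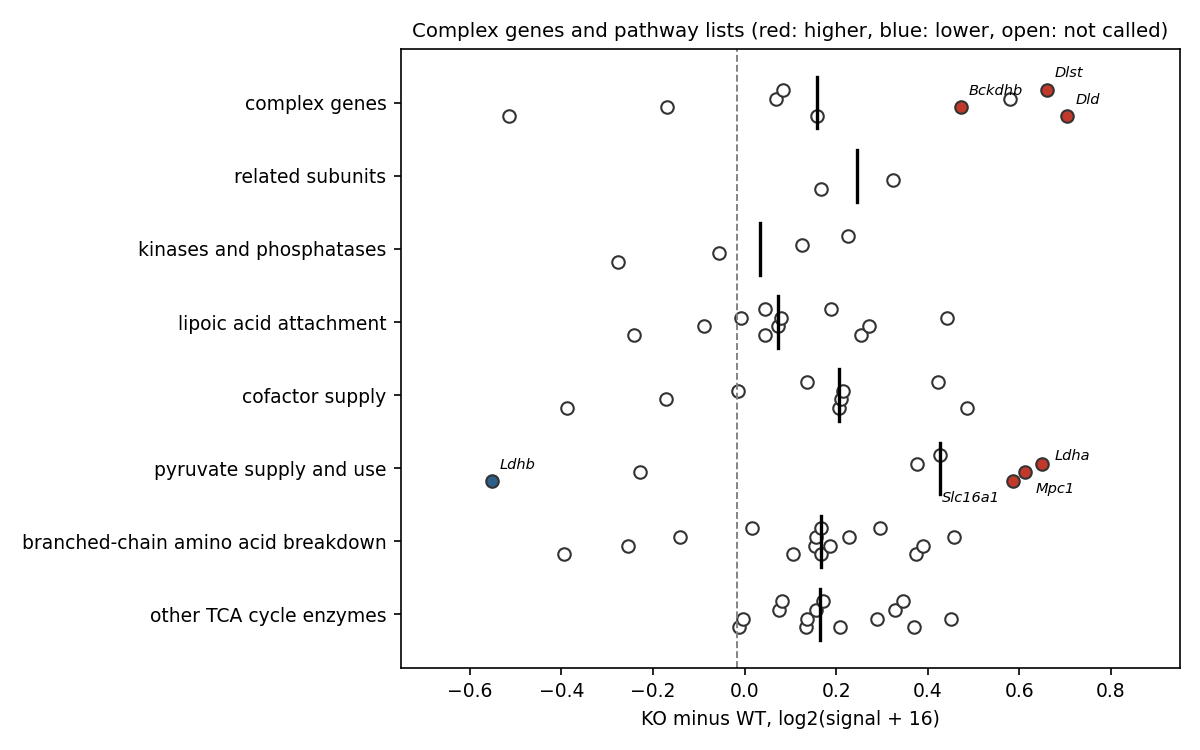
Difference between KO and WT, on the log2(signal + 16) scale, for each tested gene of the complexes and of 7 pathway lists. Filled points passed the threshold (red higher, blue lower), short bars are list medians and the dashed line is the median of all tested genes, -0.02. Outside the complexes, the filled points are all in the list of pyruvate supply and use at the reported settings, while genes of other lists passed under some other settings.

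Pdk1, the pyruvate dehydrogenase kinase known for its part in keeping blood stem cells glycolytic, did not differ between the genotypes by more than its spread (difference -0.06, -1.46 to 1.35) but varied widely within both. It is described because of that spread, chosen after its values were seen. Its deposited signals were 3288.9, 4280.2, 1014.5 and 2565.2 in KO and 4384, 3088.4 and 538.3 in WT. Lkb1 KO 6 and WT 7 were low, and the other arrays were high. A second probe set was lowest on the same arrays, with 1198, 2008.8, 336.8 and 1049.2 in KO and 1813.8, 941.8 and 191 in WT. After normalization the highest array stood 3.84-fold above the lowest within KO and 5.19-fold within WT. The within-group SD of Pdk1, 1.03 on the log2 scale, ranked 10 from the top among the 8077 tested genes, whose median was 0.176, and those of the 9 members ran from 0.08 for Bckdhb and 0.10 for Dld through 0.21 for Dlst to 0.59 for Dbt.

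The genes whose 7 values followed Dld most closely were Dut, of nucleotide metabolism, the nuclear import gene Kpna2 and Thap11, by a root mean square difference of 0.0735, 0.0740 and 0.0754 log2 units after each gene's mean was removed. The median gene differed from Dld by 0.409. For Dlst they were Stoml2, a protein of the mitochondrial inner membrane, the mitochondrial ribosome gene Mrps25 and the ATP synthase gene Atp5k, at 0.0973, 0.101 and 0.104. All of these but Mrps25 were higher in KO past the threshold. Between Dld and Dlst the measure was 0.175, and Dlst ranked 151 among the 8076 other genes by closeness to Dld. The measure includes the difference between the genotypes for which both members were picked. The closeness of Dld and Dlst, and the direction of the genes nearest to each, therefore follow in part from the choice. Dld and Dlst lie on the same chromosome, 12. None of the 3 tested genes on either side of each passed, where 5.41% of all tested genes did. Any role of their place was not tested. Sh3yl1 and Cbll1, next to Dld, were at -0.29 and -0.26, and Ylpm1 and Eif2b2, next to Dlst, at 0.06 and -0.10.

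The differences of Dld, Dlst, Bckdhb and Bckdha had the same sign in 20 other fits, 13 with another setting and 7 without a sample. Some of these cannot move the difference: the filters and the prior leave it as it is for all 4 genes, as does the choice of probe set for Dld, Bckdhb and Bckdha, which have 1 each. Among the 13, Dld passed in 11, Bckdhb in 9, Dlst in 6 and Bckdha in 3. With the replicate number as a block, Dld was at 0.70, Dlst at 0.69 and Bckdhb at 0.47, each short of the threshold (limma adjusted p = 0.108, 0.108 and 0.127), although the numbers are not known to pair the samples. The block leaves fewer residual degrees of freedom than the reported fit. Lkb1 KO 4, without a WT sample of its number, adds nothing to that contrast. With the Actb ratio as a covariate they were at 0.80, 0.59 and 0.52 (limma adjusted p = 0.471, 0.625 and 0.526), and no gene of the array passed, while 713 had an unadjusted p under 0.05. In the deposited scaling they were at 1.10, 1.05 and 0.87.

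**Figure D4:**
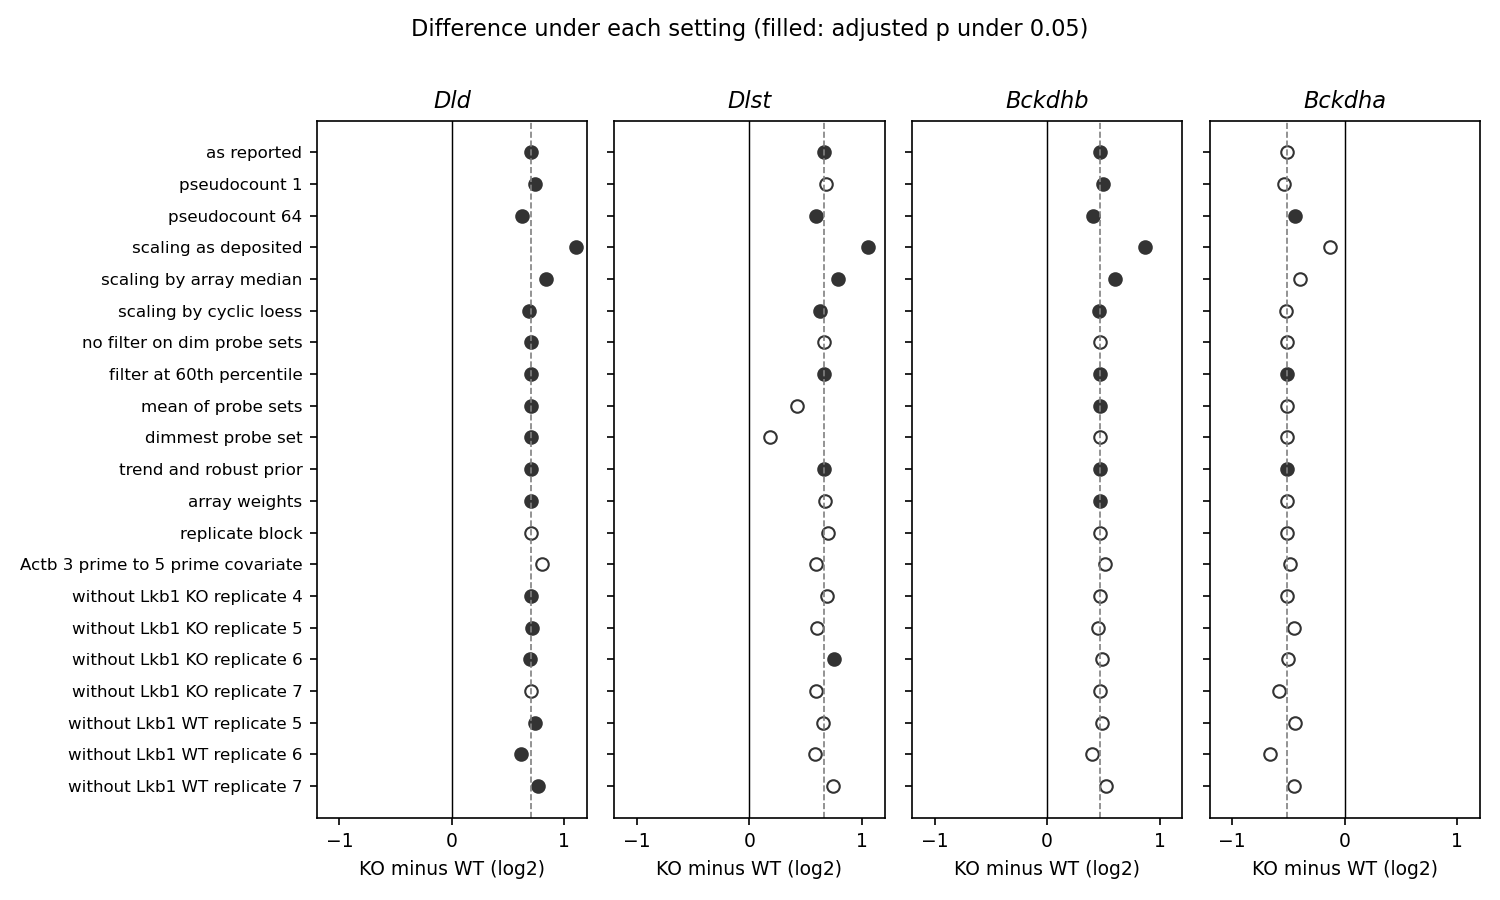
Difference between KO and WT (log2 scale) for 4 complex genes as reported and under 20 other settings of the processing or with a sample left out. Filled points have an adjusted p under 0.05 and the dashed line is the reported value. All points of Dld, Dlst and Bckdhb lie above 0 and all of Bckdha below it, and the dimmest probe set of Dlst stands at 0.18 and Bckdha in the deposited scaling at -0.13.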

How the data were processed

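The values the authors deposited are linear signal intensities, 1 for each probe set of each array, made with MAS5 per the submitters' processing notes. The sources used here do not give its version, settings or scaling target. Of 22690 probe sets 64 were controls. Symbols came from the platform annotation, in which 20393 probe sets had a single symbol, 691 several and 1555 none. The count of 1555 leaves out control probe sets, and the other counts do not. Of those with a single symbol, 20364 were matched by gene ID to the GRCm38.p6 gene table and took its symbol, whether or not it differed.

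The 7 arrays were quantile-normalized over non-control probe sets and analysed as log2(signal + 16), which understates changes of dim genes. Probe sets with a mean above the 40th percentile entered, and the brightest with a single symbol stood for each gene. The genotypes were tested by lmFit and eBayes of limma 3.58.1 under R 4.3.3, with 5 residual degrees of freedom and Benjamini-Hochberg adjustment over 8077 genes. The number of arrays limits the precision. The background level is the 95th percentile of 189 readings of 27 Bacillus control probe sets, which the labels do not say were spiked in.

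The complex genes, lists and settings were chosen with earlier results of these data known. The text names every member, of each pathway list the genes past the threshold and the 2 of lowest p, the 3 genes closest in pattern to Dld and to Dlst, Stk11, the markers and, chosen after their values were seen, Pkm, Pdk1, Pdk2, Pdk4, Lias, Lipt1, Me2 and Pank1, and neighbours of Dld, Dlst and Pdk1. Same-numbered KO and WT samples were checked for pairing by the correlation of their deviations from the group means.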

Additional observations from a re-analysis of the deposited data

How the results depend on the processing

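The numbers of members, pathway genes and all genes past the threshold, 3, 4 and 437 as reported, moved with the processing. Without each sample in turn they ran from 0 to 2, from 0 to 3 and from 43 to 193, all lowest without Lkb1 KO 7, and the pathway genes also at 0 without WT 6. Without a filter on dim probe sets they were 1, 0 and 56, and with the dimmest probe set of each gene 1, 2 and 149. With the Actb ratio, which did not overlap between the genotypes, as a covariate they were 0, 0 and 0 in limma. In that fit 2, 10 and 713 had an unadjusted p under 0.05. Pathway genes and all genes numbered 11 and 694 with a pseudocount of 64, 20 and 1415 in the deposited scaling, 12 and 711 with scaling by the median, 13 and 711 with a filter at the 60th percentile, and 13 and 917 with a trended robust prior. Mecr, Coasy, Aldh6a1, Ivd, Idh3a and Sdhc, which are outside the pyruvate list, passed with the pseudocount of 64 and with the filter at the 60th percentile. The deposited scaling gave 1372 higher and 43 lower, the median scaling 545 and 166, against 199 and 238 as reported.

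With the replicate number as a block, which leaves fewer residual degrees of freedom, 0 members, 0 pathway genes and 1 gene passed. Deviations of same-numbered samples correlated at 0.03, 0.10 and 0.05, none over 0.1, and whether the numbers mark a shared litter, batch or day is not known. WT 6 and WT 7 correlated best with their own number and WT 5 with KO 4.

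Dlat turned to 0.23 in the deposited scaling, 0.15 in the mean of its probe sets, 0.27 in the dimmest, and 0.36, 0.35 and 0.38 without WT 5, WT 6 and WT 7, where another probe set became the brightest. Without each sample Dlat ran from -0.22 to 0.38 and Pdhb from -0.073 to 0.16. Pdhb turned to -0.013 without KO 6, -0.011 without KO 7 and -0.073 without WT 5, and Mrps36 to -0.094 with the Actb covariate. Apart from the fits whose construction is named, the cause was not tested. Signal near background limits Dbt and the dimmer probe set of Pdhb.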

Other observations

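Metap1d, which encodes a mitochondrial methionine aminopeptidase and lies 2 tested genes from Pdk1 on chromosome 2, varied within the genotypes as Pdk1 did. Its deposited signals were 463.5, 591.2, 96.7 and 313.4 in KO and 886.9, 279.9 and 105.6 in WT, lowest on Lkb1 KO 6 and WT 7. Its within-group SD was 1.08, rank 7 of 8077, and the difference between genotypes was -0.38 (limma adjusted p = 0.759). A second probe set of Metap1d read 3, 0.5, 1.5 and 1.5 in KO and 1.2, 19.5 and 2.4 in WT. It was below the background level on all arrays but WT 6, so the spread of Metap1d rests on 1 probe set. Itga6, an integrin gene that lies between Metap1d and Pdk1, had a within-group SD of 0.09, rank 7068, and fell by 0.55 (limma adjusted p = 0.0239). Me2, the mitochondrial malic enzyme, and Pank1, of coenzyme A synthesis, ranked 17 and 19 by the same measure, but in 1 of their 2 probe sets each. The highest array of Me2 stood 3.19-fold above the lowest in KO and 3.92-fold in WT in that probe set, and 1.23-fold and 1.38-fold in the other. For Pank1 these folds were 2.12 and 4.60, and 1.46 and 1.68 in the other. The probe sets of Me2 also differed in direction. On the log2 scale the widely spread one had means of 7.73 in KO and 7.96 in WT, with overlap. The other had means of 7.14 in KO and 6.63 in WT, with every KO array above every WT array. These genes were chosen after their values were seen, and no cause of their spread was tested.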
